A study of Mus musculus with 16 samples.

Results

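The 33 genes described here belong to the unfolded protein response and the integrated stress response of the hippocampus. They were taken by gene name from a table of raw read counts that holds 55335 genes. They comprise 7 lumenal chaperones and cochaperones (Hspa5, Hsp90b1, Hyou1, Dnajb9, Dnajb11, Dnajc3 and Sdf2l1), 2 lectin chaperones (Calr and Canx), 3 protein disulfide isomerases (Pdia3, Pdia4 and Pdia6) and 2 secreted proteins of the stressed endoplasmic reticulum (Manf and Creld2). A further 6 genes serve ER-associated degradation (Herpud1, Syvn1, Sel1l, Edem1, Derl1 and Derl3), 7 encode sensors and transcription factors (Atf6, Ern1, Eif2ak3, Xbp1, Atf4, Atf3 and Ddit3), and 6 encode targets of the integrated stress response or subunits of the eIF2 phosphatase (Trib3, Chac1, Asns, Sesn2, Ppp1r15a and Ppp1r15b). The question was whether inhibition of stearoyl-CoA desaturase (SCD), an enzyme that turns saturated into monounsaturated fatty acids, changes the RNA of these genes.

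Whole hippocampi of 16 female mice, 10 months old, were sequenced in 4 groups of 4 mice. WT mice (labelled C57BL/6J x 129S1) and 3xTg mice received either the SCD inhibitor CAY10566 (SCDi) at 80 µM or vehicle, 0.8% DMSO in artificial cerebrospinal fluid, from a pump into the lateral ventricle for 28 days. The groups are called WT-D and 3xTg-D (vehicle) and WT-S and 3xTg-S (SCDi), and all 16 mice carried a pump and DMSO. The 3xTg genotype includes human mutant APP and tau transgenes under the mouse Thy1 promoter, which is active mainly in neurons. The treatment label of each mouse names the Cayman inhibitor, whereas the protocol entry common to them names ab142089, and the treatment label was followed.

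The ER stress pathways are read out by transcription. Unfolded protein in the ER lumen is sensed by the kinase and RNase Ern1 (IRE1), which splices Xbp1 mRNA, by Atf6, which is cleaved to a transcription factor, and by the kinase Eif2ak3 (PERK), which phosphorylates the translation factor eIF2. Spliced Xbp1 and cleaved Atf6 raise chaperones and degradation factors, while eIF2 phosphorylation favours translation of Atf4, which raises amino acid and apoptosis genes such as Asns, Chac1, Ddit3 and Trib3. Saturated fatty acids in ER membranes are known to activate Ern1 and Eif2ak3 in many cell types. Splicing, cleavage and phosphorylation are not seen in gene counts, and Atf4 is controlled largely by translation.

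The libraries held 15413385 to 23590149 reads assigned to genes. The Thy1 gene, whose regulatory sequence the transgenes share, had 517 to 625 CPM (read counts scaled to library size) in the 8 WT mice and 1566 to 2141 CPM in the 8 3xTg mice, with no overlap. Summed over 6 neuronal markers, CPM ranged from 5094 to 6431 over the 16 mice, and over 7 markers of hippocampal subfields from 404 to 576, with none of these markers at 0. The mice WT-D 4 and WT-S 1 stood apart by choroid plexus markers, whose 10 genes summed to 1403 and 684 CPM, with a choroid plexus score (the mean log2 CPM of these genes) of 5.01 and 4.11 against 0.848 to 2.54 in the other 14 mice. In such bulk tissue, fewer cells of a type and less RNA per cell cannot be told apart.

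Of the 33 names, 34 rows of the table matched, since Ddit3 occurs there under 2 identifiers. The second Ddit3 row shares 105 exon bases with the first and held 0 counts in all mice, so the first, ENSMUSG00000025408.15, was used. After the filter on low counts, 32 of the 33 genes were tested. Trib3, a pseudokinase induced late in stress, was left out by the filter and had 2 to 10 reads per mouse.

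Levels were compared between genes as CPM per kilobase of exon, averaged over the 16 mice. The calcium-binding lectin chaperone Calr was highest at 126 CPM per kb, followed by the lumenal HSP90 Hsp90b1 at 116, Canx, the membrane-bound lectin chaperone, at 113 and Hspa5 (BiP), the main lumenal HSP70 and a brake on the sensors, at 90.01. With Hspa5, 17 genes lay between 10 and 100 CPM per kb, and 10 lay between 1 and 10. The neighbours Calr, Hsp90b1 and Canx overlapped between mice. Atf4 at 54.0 and Asns, which makes asparagine, at 37.8 came next among the genes of the integrated stress response. The sensors were lower, with 11.6 CPM per kb for Atf6, 4.48 for Eif2ak3 and 1.45 for Ern1. At the low end, Atf3 had 0.425, Derl3 0.284 and Trib3 0.148 CPM per kb, and these values rest on at most 41, 20 and 10 reads in any mouse.

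**Figure D1:**
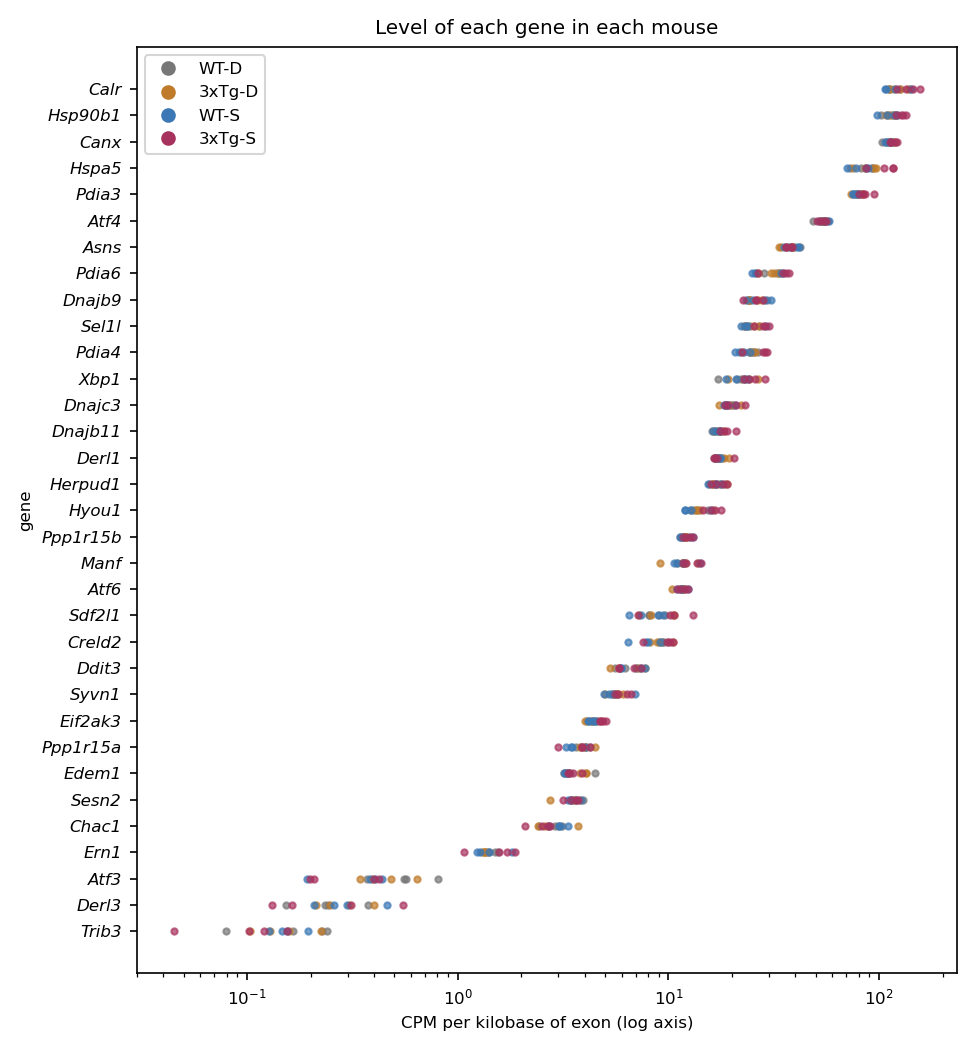
Level of each of the 33 genes in each of the 16 mice, as CPM per kilobase of exon on a log axis, with a point per mouse coloured by group. Calr, Hsp90b1 and Canx lie above 100 and Atf3, Derl3 and Trib3 below 1 CPM per kb on average.

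RefSeq promoters (GRCm38.p6, 250 bases before to 50 after the start) were found for 28 of the 33 genes, and 4 motifs were searched on both strands. The ER stress response element ERSE (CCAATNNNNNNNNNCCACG), to which NF-Y binds together with Atf6 or Xbp1, was present in 9 of the 28 genes (Calr, Canx, Creld2, Derl3, Dnajc3, Hsp90b1, Hspa5, Pdia6 and Syvn1) and in 0.119% of all 32851 promoters. Its variant ERSE-II (ATTGG and CCACG with 1 base between them) was present in Herpud1 and Dnajb11 and in 0.0365% of all promoters. The Atf4 motif CARE (TGATGNAA) was found in Asns, Atf3, Chac1, Herpud1 and Trib3 and in 3.97% of all promoters, and the Xbp1 motif UPRE (TGACGTGG) in none of the 28 and in 0.676% of all. None of these motifs overlapped another in the 28 promoters. The 250 bases before the start of Hspa5, on the plus strand of chr2:34771840-34772089, are shown since they hold the exact ERSE (capitals) of the member that was called between the genotypes under the SCDi.
Hspa5 promoter: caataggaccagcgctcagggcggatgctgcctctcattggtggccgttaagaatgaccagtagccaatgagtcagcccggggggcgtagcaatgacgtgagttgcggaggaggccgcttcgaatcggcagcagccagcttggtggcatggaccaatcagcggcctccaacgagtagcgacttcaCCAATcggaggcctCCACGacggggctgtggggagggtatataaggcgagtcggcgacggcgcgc
The matches below are shown to compare the arms, with the fixed letters of each motif in capitals and 5 flanking bases on each side.
Hspa5 ERSE at chr2:34772025-34772043, plus strand: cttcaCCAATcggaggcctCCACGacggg
Hsp90b1 ERSE at chr10:86705638-86705656, minus strand: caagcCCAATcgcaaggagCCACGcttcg
Hsp90b1 ERSE at chr10:86705533-86705551, plus strand: actcaCCAATcgtgcctcaCCACGcactc
Calr ERSE at chr8:84847075-84847093, plus strand: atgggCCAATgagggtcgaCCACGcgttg
Pdia6 ERSE at chr12:17266491-17266509, plus strand: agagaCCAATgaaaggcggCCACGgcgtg
Herpud1 ERSE-II at chr8:94386377-94386387, plus strand: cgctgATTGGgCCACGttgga
Dnajb11 ERSE-II at chr16:22857852-22857862, plus strand: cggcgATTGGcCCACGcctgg
Asns CARE at chr6:7693225-7693232, minus strand: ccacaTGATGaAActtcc
Atf3 CARE at chr1:191183436-191183443, plus strand: cttggTGATGcAAgtgcg
Chac1 CARE at chr2:119351049-119351056, minus strand: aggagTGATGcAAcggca
Trib3 CARE at chr2:152344039-152344046, plus strand: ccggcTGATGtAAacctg
Hsp90b1 held 2 exact ERSE matches, on opposite strands. A match is a description of the letters and not a site shown to be bound in these mice.

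In WT mice, no member of the ER stress pathways was called as higher with the SCDi, while 10 of the 32 tested had a log2 fold change above 0. Hspa5 had 308, 348, 391 and 391 CPM in the WT-D mice and 329, 298, 368 and 375 CPM in the WT-S mice. The groups overlapped over almost their whole range. The log2 fold change (SCDi minus vehicle) was -0.07 (SE 0.10, 95% interval -0.28 to 0.14, edgeR adjusted p = 0.999). Hsp90b1 had 410.5, 444, 462 and 491 CPM under vehicle and 438, 395, 492 and 477 CPM under the SCDi, a log2 fold change of -0.004 (SE 0.080, edgeR adjusted p = 0.999). The IRE1 target Xbp1 had 55.9, 69.1, 71.9 and 73.1 CPM in WT-D and 67.8, 60.8, 75.1 and 77.2 CPM in WT-S, and its log2 fold change was 0.06 (SE 0.10, edgeR adjusted p = 0.999). Herpud1, a membrane adaptor of the degradation complex with both kinds of motif, had 36.2, 43.5, 37.9 and 41.7 CPM against 39.4, 41.5, 35.9 and 39.3 CPM, a log2 fold change of -0.03 (SE 0.08, edgeR adjusted p = 0.999). None of these 4 genes of the Atf6 and Ern1 arms separated the WT groups.

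Among the integrated stress response genes, none separated the WT groups. Atf4 had 115, 136, 130.5 and 126 CPM in WT-D and 136, 123, 131 and 128 CPM in WT-S (log2 fold change 0.03, SE 0.07, edgeR adjusted p = 0.999). The pro-apoptotic factor Ddit3 (CHOP) had 9.55, 12.2, 12.1 and 10.7 CPM against 10.2, 12.6, 13.3 and 10.1 CPM (log2 fold change 0.06, SE 0.12, edgeR adjusted p = 0.999). Asns had 99.5, 108, 115 and 106 CPM against 111, 114, 96.9 and 103 CPM (log2 fold change -0.01, SE 0.07, edgeR adjusted p = 0.999). All 3 genes overlapped between the groups. Trib3, not tested, had 0.169, 0.480, 0.3503 and 0.511 CPM in WT-D and 0.329, 0.311, 0.413 and 0.271 CPM in WT-S, with all WT-S values inside the WT-D range.

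Over all 32 tested genes, edgeR called 0 in WT mice at the study's threshold, an unadjusted p not above 0.01, where 0.2% of all 16475 tested genes were called. DESeq2 also called 0. At a threshold of 0.05 there were 3 (DESeq2 2), all lower under the SCDi, beside 2.26% of all tested genes, and after Benjamini-Hochberg adjustment 0 members and 0 genes in all stayed at or under 0.05. The 3 were the stress-induced factor Atf3 (log2 fold change -0.70, SE 0.31), the disulfide isomerase Pdia4 (-0.17, SE 0.07) and the secreted Creld2 (-0.28, SE 0.11), with an edgeR adjusted p of 0.999 each. Creld2 had 12.6 to 13.6 CPM in WT-D and 8.73 to 12.5 CPM in WT-S, without overlap, which held for 1 of the 32 genes and, in this direction, for 0.716% of all tested genes. Atf3 had 1.73, 1.20, 0.801 and 1.23 CPM in WT-D and 0.939, 0.415, 0.825 and 0.868 CPM in WT-S, which overlapped. The median log2 fold change of the 32 genes was -0.01, beside -0.001 for all tested genes, and 10 of the 32 were above 0. The upper limit of the 95% interval lay below a log2 fold change of 0.5 in 31 of the 32 genes, with Derl3 as the exception at 1.08. Intervals are per gene, not adjusted for the number of genes, and treat mice of the same replicate number as unpaired.

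**Figure D2:**
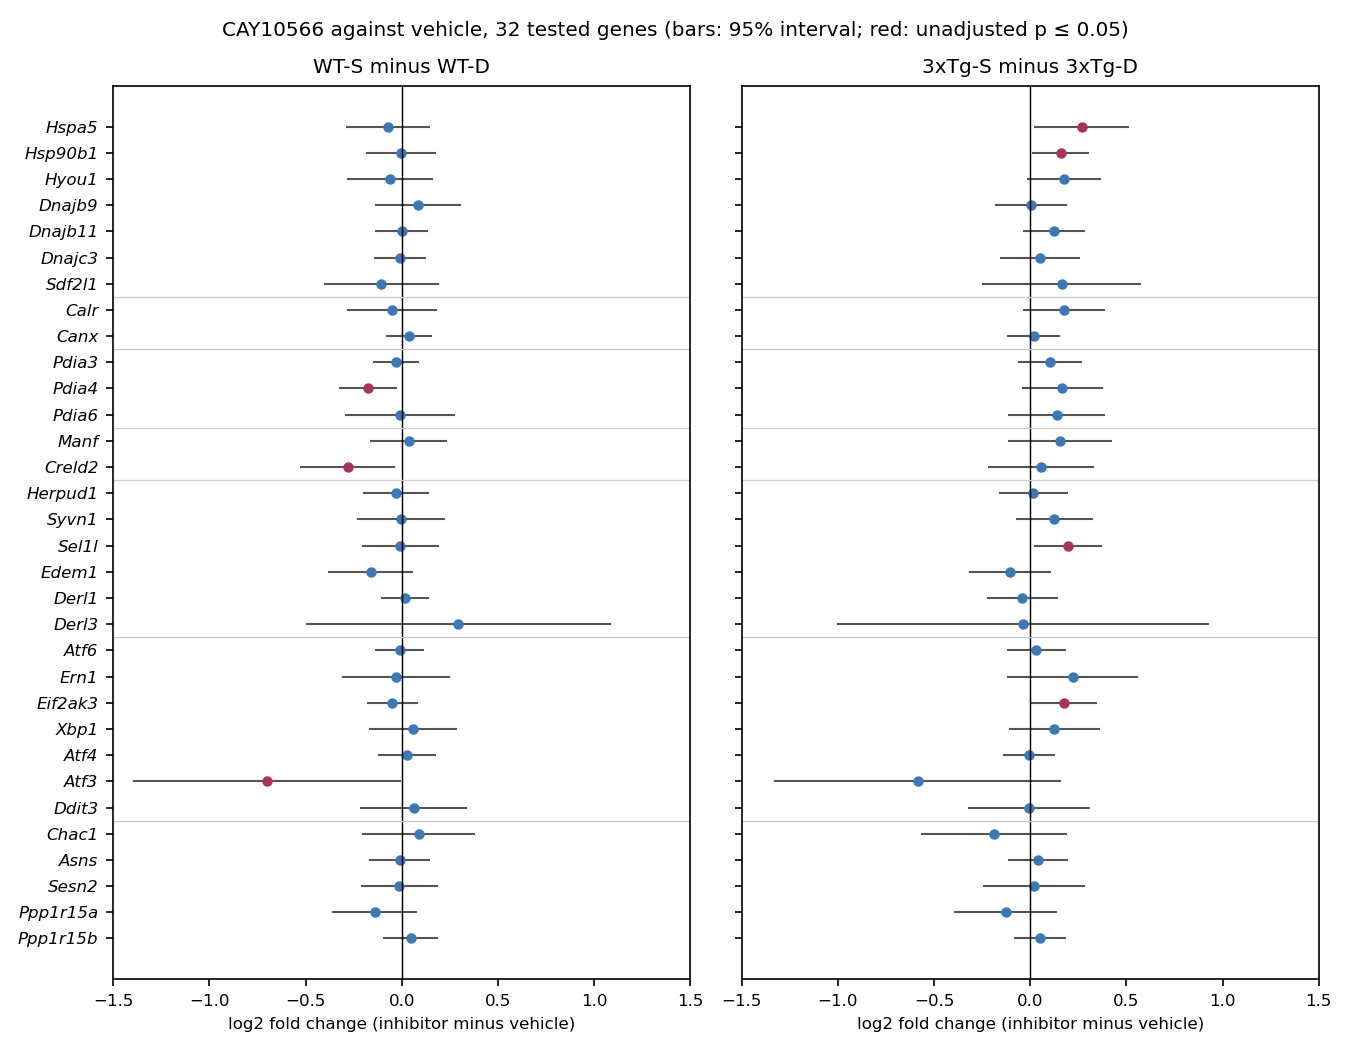
Log2 fold change of the 32 tested genes with the SCDi, as point and 95% interval, in WT mice (left) and 3xTg mice (right), ordered by role from chaperones (top) to targets of the integrated stress response (bottom), with red points where the unadjusted p was not above 0.05. The WT points lie around 0 (median -0.01), the 3xTg chaperones and disulfide isomerases lie at or to the right of 0, and the widest intervals belong to Atf3 and Derl3.

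In 3xTg mice, all 7 lumenal chaperones had a log2 fold change above 0 with the SCDi, and none passed the study's threshold. Hspa5 had 318, 364, 409 and 399 CPM in 3xTg-D and 366, 491, 491 and 445 CPM in 3xTg-S. Mice 2, 3 and 4 of 3xTg-S lay above all other 13 mice, and mouse 1 lay within the range of 3xTg-D. The log2 fold change was 0.27 (SE 0.11, 95% interval 0.02 to 0.51, edgeR adjusted p = 0.722). Hsp90b1 had 436, 452, 476 and 479 CPM in 3xTg-D and 482, 539, 521 and 513 CPM in 3xTg-S. These 2 groups did not overlap, with a log2 fold change of 0.16 (SE 0.06, edgeR adjusted p = 0.722), and Hsp90b1 was the single member without overlap, beside 1.4% of all tested genes that lay higher in 3xTg-S without overlap. Xbp1 had 62.5, 86.2, 78.8 and 74.6 CPM against 73.8, 93.7, 84.0 and 78.1 CPM, which overlapped (log2 fold change 0.13, SE 0.11, edgeR adjusted p = 0.753). Single mice moved this value for Xbp1, which was 0.05 without 3xTg-D 1, 0.06 without 3xTg-S 2 and 0.20 without 3xTg-D 2, and it was 0.22 with the share of reads outside genes as a covariate. Herpud1 had 38.0, 40.4, 38.4 and 44.3 CPM against 37.0, 44.1, 42.4 and 39.4 CPM (log2 fold change 0.02, SE 0.08, edgeR adjusted p = 0.962).

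The Atf4 arm did not separate the 3xTg groups. Atf4 had 125, 131, 125 and 127 CPM in 3xTg-D and 119, 129, 124 and 132 CPM in 3xTg-S (log2 fold change -0.01, SE 0.06, edgeR adjusted p = 0.980). Ddit3 had 12.4, 13.2, 9.07 and 10.0 CPM against 11.8, 12.7, 10.0 and 9.99 CPM (log2 fold change -0.01, SE 0.14, edgeR adjusted p = 0.992). Asns had 104, 91.4, 93.3 and 106 CPM against 105, 104, 99.0 and 99.2 CPM (log2 fold change 0.04, SE 0.07, edgeR adjusted p = 0.860). In each of the 3 genes, the ranges of the 2 groups overlapped. Trib3 had 0.220, 0.336, 0.478 and 0.273 CPM in 3xTg-D and 0.327, 0.0954, 0.257 and 0.216 CPM in 3xTg-S. Atf3, with few reads, had 1.37, 0.839, 0.743 and 1.04 CPM in 3xTg-D and 0.916, 0.429, 0.450 and 0.864 CPM in 3xTg-S. Its groups overlapped (log2 fold change -0.59, SE 0.33, edgeR adjusted p = 0.722). For the other targets, the log2 fold change was -0.19 (SE 0.17) for Chac1, which degrades glutathione, 0.02 (SE 0.12) for the mTORC1 inhibitor Sesn2, -0.13 (SE 0.12) for the inducible eIF2 phosphatase subunit Ppp1r15a and 0.05 (SE 0.06) for its constitutive counterpart Ppp1r15b.

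**Figure D3:**
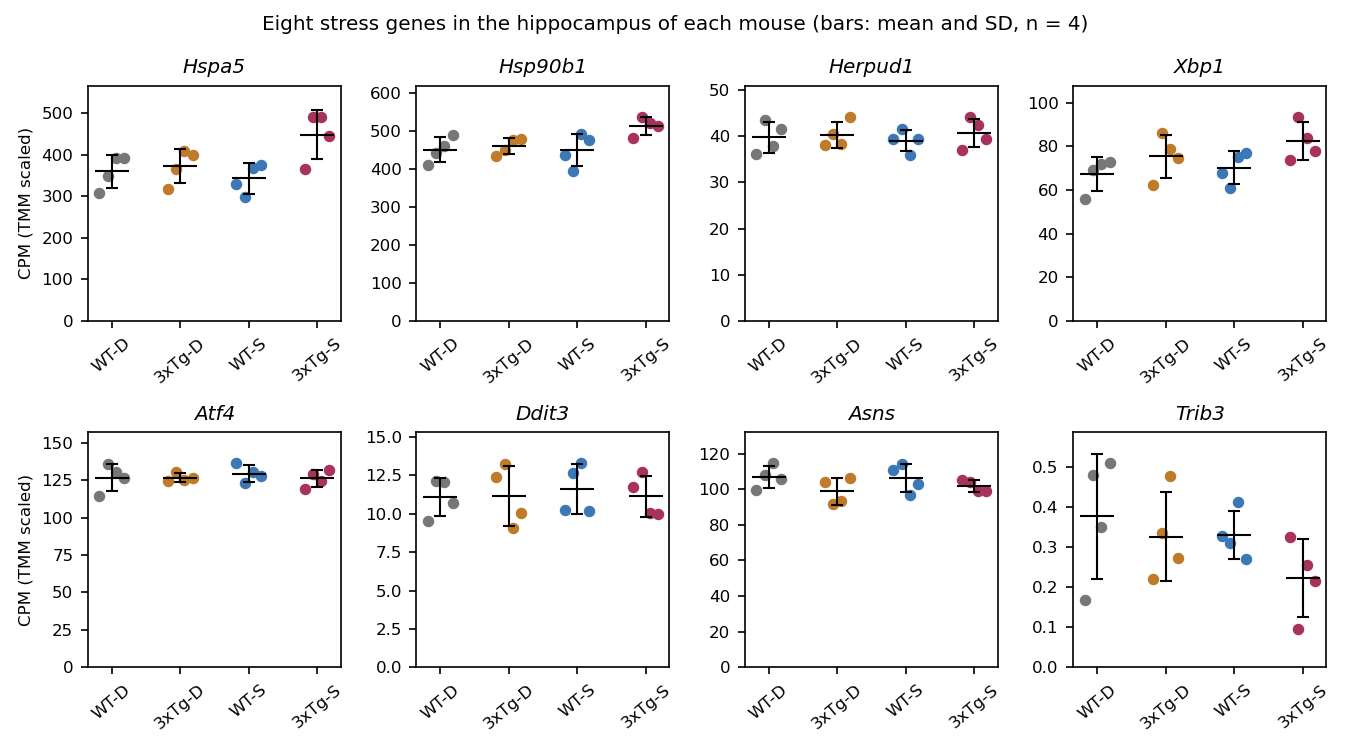
CPM of 8 stress genes in each mouse of the 4 groups, with a point per mouse and bars for the mean and SD of 4 mice, on axes that start at 0. Hspa5 lies at 366 to 491 CPM in 3xTg-S against 298 to 409 CPM in the other 12 mice, while the 4 groups overlap in Atf4, Ddit3, Asns and Herpud1.

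For the 3xTg mice, edgeR called 0 of the 32 genes at 0.01 (0.904% of all tested genes), and DESeq2 called 0. At 0.05 there were 4 (12.5% of the 32, DESeq2 3), all higher under the SCDi, beside 6.33% of all tested genes, and after adjustment 0 genes in all were at or under 0.05. Beside Hspa5 and Hsp90b1 these were Sel1l, the scaffold of the main degradation complex (log2 fold change 0.20, SE 0.08), and the sensor Eif2ak3 (0.17, SE 0.08). Sel1l had 197, 195, 218 and 229 CPM in 3xTg-D and 218, 246, 241 and 258 CPM in 3xTg-S, so the groups overlapped at 1 mouse. The median over the 32 genes was 0.05 (0.03 to 0.13 with a mouse left out, with 0.11 without 3xTg-D 2 and 0.13 without 3xTg-S 1), beside 0.007 for all tested genes, and 24 of the 32 (75.0%) were above 0 beside 51.9% of all tested genes. By role, all 7 lumenal chaperones, both lectin chaperones, all 3 disulfide isomerases and both secreted proteins were above 0, with medians of 0.16, 0.10, 0.14 and 0.10, while the 6 degradation genes had a median of -0.01 and the 5 tested targets and phosphatase subunits one of 0.02. Of these, Dnajb9 (0.004) and Canx (0.02) were near 0. Many of these genes varied together from mouse to mouse (below), so their signs are not independent observations of the SCDi. The upper limit of the 95% interval lay below a log2 fold change of 1 in all 32 genes and below 0.5 in 28. The replicate block raised the number called at 0.01 to 2, Hspa5 and Sel1l, beside 6.88% of all tested genes under the block. Without mouse 3xTg-S 1 it was 2, Hspa5 (log2 fold change 0.35) and Pdia4 (0.25), beside 0.971% of all tested genes, and without 3xTg-D 4 or 3xTg-S 2 it was 1 each, Eif2ak3 and Ern1, beside 1.68 and 4.87%. Erythroid markers summed over 5 genes ranged from 31.3 to 127 CPM in 3xTg-S against 30.5 to 75.5 CPM in 3xTg-D, 5 oligodendrocyte markers from 4064 to 6405 against 5298 to 6376 CPM and 6 microglial markers from 328 to 490.1 against 400.3 to 736 CPM, with none at 0, and the share of reads outside genes from 7.82 to 15.1% against 8.79 to 11.3%. With the reads outside genes as a covariate the log2 fold change of Hspa5 was 0.31, and the part of the 3 marker lists was not tested.

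**Figure D4:**
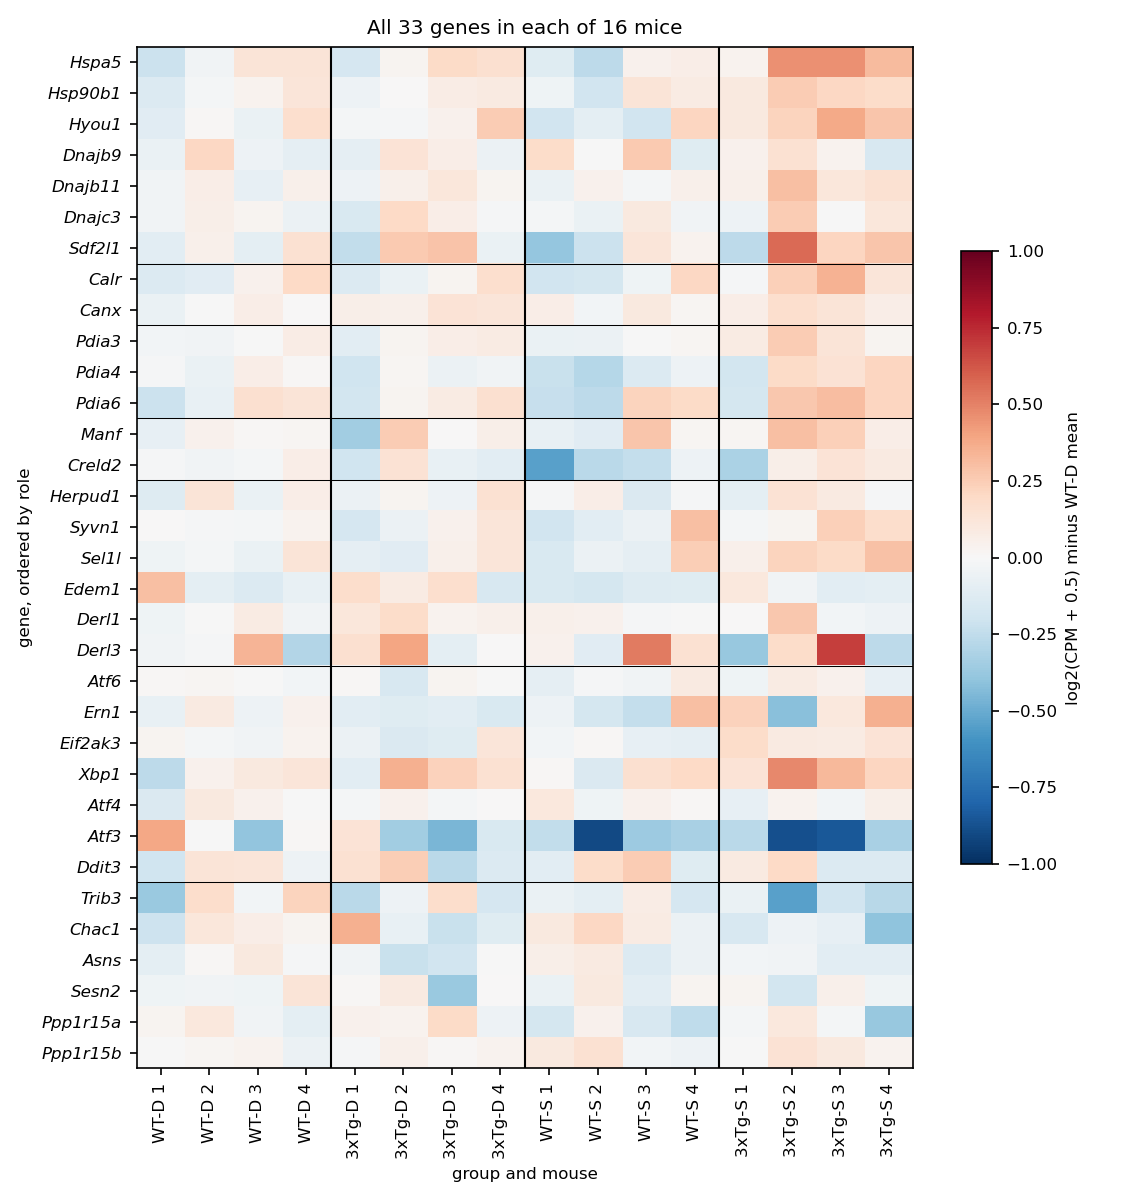
All 33 genes (rows, by role) in the 16 mice (columns, by group), as log2(CPM + 0.5) minus the mean of WT-D, from blue (lower) to red (higher). Of the 12 chaperones and disulfide isomerases in the upper rows, 0 lie below the WT-D mean in mouse 2 of 3xTg-S, 1 in mouse 3 (Dnajc3), 1 in mouse 4 (Dnajb9) and 5 in mouse 1, and the 6 rows of targets and phosphatase subunits show no such block. Vehicle mice show it too. In mouse 3 of 3xTg-D only Pdia4 lies below the WT-D mean (58.4 against 60.7 CPM), and in mouse 2 only Hyou1 and Calr.

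At the unadjusted threshold of 0.01, the effect of the SCDi was called as different between genotypes for 1 of the 32 genes, the disulfide isomerase Pdia4. Pdia4 had 60.2, 58.0, 63.6 and 61.2 CPM in WT-D and 51.9, 49.7, 55.1 and 58.7 CPM in WT-S, so WT-S overlapped WT-D only at its highest mouse. It had 52.8, 61.7, 58.4 and 59.2 CPM in 3xTg-D and 53.5, 69.2, 67.2 and 70.6 CPM in 3xTg-S, where 3 of 4 mice lay above all of 3xTg-D. The interaction, the SCDi effect in 3xTg minus that in WT on the log2 scale, was 0.34 (SE 0.12, 95% interval 0.10 to 0.58), beside 0.595% of all tested genes at this threshold. Its edgeR adjusted p was 0.788. The call was lost under 6 alternatives, with a log2 difference of 0.31 to 0.35, and in 12 of the 16 fits that left out a mouse. It was kept by DESeq2 (0.694% of all tested genes called) and with the replicate block (3.79%), where Hspa5 was also called (0.33). Hspa5 (0.34, SE 0.16, edgeR adjusted p = 0.788) and Eif2ak3 (0.22, SE 0.09, edgeR adjusted p = 0.788) also lay at 0.05 or less, where 4.98% of all tested genes lay. Of the 32 interaction values, 25 were above 0, with a median of 0.09 beside 0.009 for all tested genes. The genes share their mice, so these values are not independent of one another. Averaged over both genotypes, a comparison added after the values were seen, the SCDi effect was called for 0 genes by edgeR and 0 by DESeq2 at 0.01 (0.88% of all tested genes) and for 1 by each at 0.05 (4.68%), Atf3, with a log2 fold change of -0.64 (SE 0.23).

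Between the genotypes under vehicle, no member was called. Hspa5 had a mean of 359 CPM ± 40.1 (SD, n = 4) in WT-D and 373 ± 41.1 in 3xTg-D. edgeR and DESeq2 called 0 members at 0.05, while 4.86% of all tested genes were called at 0.01, 12.6% at 0.05 and 1.88% after adjustment at 0.05. The lowest p belonged to Canx (log2 fold change, 3xTg minus WT, 0.09, SE 0.05, edgeR adjusted p = 0.492). The median was 0.01 beside -0.002 for all tested genes. Ern1 was the only member without overlap, beside 3.78% of all tested genes that lay lower in 3xTg-D without overlap, at 10.7 to 11.0 CPM in 3xTg-D and 11.3 to 12.7 CPM in WT-D (log2 fold change -0.13, SE 0.08, edgeR adjusted p = 0.557). The 5 oligodendrocyte markers did not overlap between these groups either, with sums of 4070.2 to 4826 CPM in WT-D and 5298 to 6376 CPM in 3xTg-D. Nor did the 7 markers of hippocampal subfields, with sums of 459 to 542 CPM in WT-D and 427 to 453 CPM in 3xTg-D. None of these markers was at 0, and the part of both lists in this comparison was not tested.

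Under the SCDi, Hspa5 was higher in 3xTg than in WT mice at the unadjusted threshold of 0.01. It had 329, 298, 368 and 375 CPM in WT-S and 366, 491, 491 and 445 CPM in 3xTg-S, where mouse 1 overlapped WT-S. The log2 fold change (3xTg minus WT) was 0.39 (SE 0.11, 95% interval 0.15 to 0.63, edgeR adjusted p = 0.161). It was the single member of 32 called (3.13%), beside 4.3% of all tested genes. DESeq2 called 2, Hspa5 and Hyou1, and after adjustment no member was at or under 0.05 by either tool, which 1.41% of all tested genes did by edgeR. At 0.05 there were 6 members (DESeq2 5), all higher in 3xTg-S, beside 10.8% of all tested genes. These were Hspa5, Hsp90b1 (0.19, SE 0.08), Hyou1, an HSP70-like exchange factor for Hspa5 (0.30, SE 0.10), Pdia4 (0.27, SE 0.10), Eif2ak3 (0.17, SE 0.07) and Xbp1 (0.23, SE 0.10). Hyou1 had 86.6, 92.6, 86.9 and 115 CPM in WT-S and 106, 116, 129 and 120.1 CPM in 3xTg-S, with the highest WT-S mouse inside the range of 3xTg-S. Dnajb11, Edem1, Eif2ak3 and Pdia3 did not overlap between these groups and were higher in 3xTg-S, as were 3.22% of all tested genes. The median of the 32 genes was 0.11 beside 0.02 for all tested genes. The call of Hspa5 was lost without 3xTg-S 2, 3 or 4, without WT-S 2 and with the choroid plexus score as a covariate (log2 fold change 0.36). It was also lost without WT-S 1 (0.37), the only mouse of this comparison with a choroid plexus score above 4. The call was kept by DESeq2, with all mice in 1 fit, with the reads outside genes as covariate and with the replicate block. With the block Hspa5 had an edgeR adjusted p of 0.0491, where 8.46% of all tested genes were called at 0.01. Over the 8 fits that left out a mouse, its log2 fold change ranged from 0.33 to 0.47.

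SCDi-treated 3xTg mice were also set against vehicle WT mice, which share their mice with the comparisons above. No member was called by edgeR at 0.01, beside 5.84% of all tested genes, and DESeq2 called 2, Hspa5 and Hyou1. At 0.05 there were 7 members (DESeq2 6), beside 13.9% of all tested genes, and 0 were at or under 0.05 after adjustment, which 1.66% of all tested genes did. Those higher in 3xTg-S were Hyou1 (0.24, SE 0.08), Hspa5 (0.32, SE 0.11), Xbp1 (0.29, SE 0.10), Hsp90b1 (0.19, SE 0.07), Sel1l (0.19, SE 0.07) and the cochaperone Dnajb11 (0.16, SE 0.07), and the 1 lower was Atf3 (-0.91, SE 0.34). Xbp1 did not overlap, at 55.9 to 73.1 CPM in WT-D and 73.8 to 93.7 CPM in 3xTg-S, nor did Eif2ak3, at 26.1 to 27.5 and 28.5 to 30.5 CPM, and 5.13% of all tested genes lay higher in 3xTg-S without overlap. Without mouse WT-D 4, the mouse with the highest choroid plexus score, 3 members were called at 0.01, Hsp90b1, Hyou1 and Sel1l (4.92% of all tested genes), and without 3xTg-S 1 there were also 3, Hspa5, Hyou1 and Sel1l (5.5%). With the replicate block 6 were called, Atf3, Hsp90b1, Hspa5, Hyou1, Sel1l and Xbp1 (6.65% of all tested genes). Between these groups the 7 subfield markers did not overlap, with sums of 459 to 542 CPM in WT-D and 425 to 452 CPM in 3xTg-S. Nor did the 10 choroid plexus markers, at 238 to 1403 CPM in WT-D and 170 to 226 CPM in 3xTg-S. The part of both lists was not tested.

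Apart from the group differences, many of the chaperones followed Hspa5 from mouse to mouse. Within groups, that is after each group's mean was taken from log2 CPM, the tested gene that followed Hspa5 most closely of 16474 was the disulfide isomerase Pdia6 (Pearson's r = 0.94), the third was Hsp90b1 (0.89), and Calr (0.84) and Xbp1 (0.84) ranked 15 and 16. The median r of Hspa5 was 0.46 with the other 31 tested members and 0.01 with all tested genes. The members did not all share this. All 3 disulfide isomerases (0.71 to 0.94) and both lectin chaperones (0.79 and 0.84) were high, and the 6 other lumenal chaperones ranged from 0.10 (Dnajb9) to 0.89 (Hsp90b1), while the 5 tested targets and phosphatase subunits lay between -0.31 and -0.03, Atf3 at -0.44 and the mannosidase-like Edem1 at -0.56. By promoter, the 10 other genes with ERSE or ERSE-II had a median r of 0.57 (0.37 to 0.94), the 13 with none of these motifs 0.10 (-0.56 to 0.84), and the 3 tested genes with CARE alone -0.24 (-0.44 to -0.22). After the mean of each replicate number was also removed, the ranges of the first and last of these groups met. The genes with ERSE or ERSE-II then ranged from 0.06 (Syvn1) to 0.83 (Canx), and those with CARE alone from -0.09 (Atf3) to 0.06 (Chac1). Apart from Syvn1 and Creld2 (0.06), the genes with ERSE or ERSE-II lay at 0.41 (Derl3) or more. These r across members are a description over 16 mice that share their libraries.

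**Figure D5:**
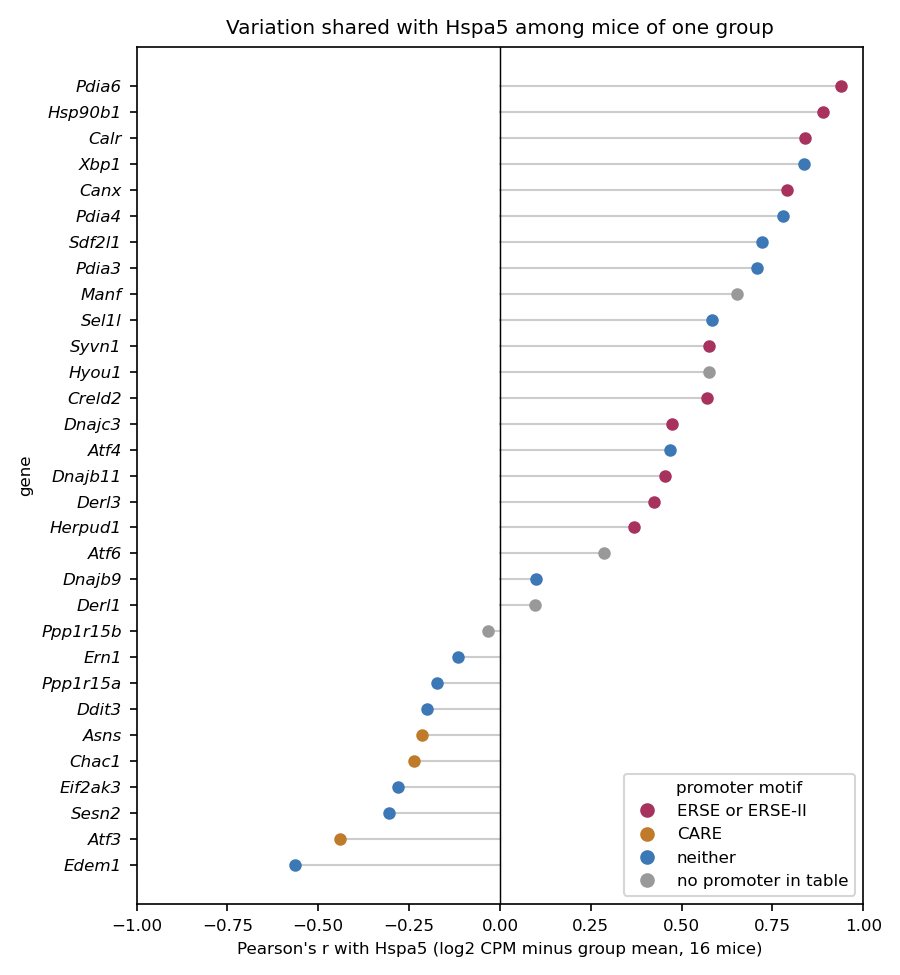
Pearson's r of each of the other 31 tested members with Hspa5 over 16 mice, from log2 CPM minus the group mean, coloured by the motif in the promoter. All 10 genes with ERSE or ERSE-II lie to the right, from 0.37 to 0.94, and the 3 with CARE alone lie to the left, from -0.44 to -0.22. After the mean of each replicate number was also removed (not drawn), both ranges reached 0.06, with Syvn1 and Chac1. The genes with ERSE or ERSE-II other than Syvn1 and Creld2 then lay at 0.41 or more.

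For 6 indicator genes the relation with Hspa5 was tested by permuting mice within groups (100000 resamples, two-sided, Benjamini-Hochberg adjustment over the 6). Hsp90b1 had r = 0.89 (permutation p = 6e-05, adjusted 0.00036) and Spearman's rho = 0.81 (permutation p = 0.00019, adjusted 0.00114), and r = 0.92 without the 2 mice farthest from the median of Hspa5. Xbp1 had r = 0.84 (permutation p = 0.00059, adjusted 0.00177) and rho = 0.72 (permutation p = 0.00517, adjusted 0.0155), and r = 0.79 without those 2 mice. The other 4 did not pass. Atf4 had r = 0.47 and rho = 0.24 (permutation p = 0.103 and 0.411, adjusted 0.206 and 0.493), and r = 0.35 without the 2 mice. Herpud1 had r = 0.37 and rho = 0.36 (permutation p = 0.216 and 0.225, adjusted 0.323 and 0.451), and r = 0.12 without them. Ddit3 had r = -0.20 and rho = -0.13 (permutation p = 0.5 and 0.659, adjusted 0.5 and 0.659), and Asns r = -0.22 and rho = -0.27 (permutation p = 0.453 and 0.317, adjusted 0.5 and 0.475), with r of -0.04 for each without the 2 mice. These permutations treat mice of the same replicate number as independent. When whole replicate numbers were permuted in all groups alike, an alternative added after seeing the data, Hsp90b1 and Xbp1 each had an exact two-sided permutation p = 0.0417, the smallest that 24 permutations can give, which did not pass adjustment over the 6 genes (adjusted 0.125). The other 4 had an exact permutation p between 0.0833 and 0.708. After the mean of each replicate number was also removed, r was 0.80 for Hsp90b1 and 0.79 for Xbp1, and the median over the 31 members was 0.41. The deviations of Hspa5 were also set against 12 measures of the libraries, namely depth, reads outside genes, choroid plexus score and 9 summed marker lists. Their r lay between -0.42 (microglial markers, permutation p = 0.153) and 0.28 (endothelial markers, permutation p = 0.330), and rho between -0.34 and 0.22, all with an adjusted p of 0.98 or more.

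Other genes of these pathways, in 6 lists, were fitted in the same way. In WT mice, edgeR called 0 genes of any list at 0.01, beside 0.2% of all tested genes, and the list medians lay between -0.02 and 0.04. In 3xTg mice it called 1 of the 135 tested, beside 0.904% of all tested genes. This was Atf5, a transcription factor of the stress sensor and eIF2 list that is translated like Atf4. Atf5 was lower under the SCDi (log2 fold change -0.41, SE 0.12, edgeR adjusted p = 0.722). List medians in 3xTg mice were -0.06 for ER import (18 tested), -0.03 for other folding enzymes (21), -0.01 for other degradation genes (19), -0.08 for other sensors and eIF2 subunits (23), -0.01 for other Atf4 targets (36) and 0.11 for heat shock proteins of the cytosol and mitochondria (18), beside 0.007 for all tested genes. The 2 heat shock genes of lowest p were Hspa1b, an inducible HSP70 (0.42, SE 0.14, edgeR adjusted p = 0.722, 3xTg-S minus 3xTg-D), and Hspa4l (0.17, SE 0.06, edgeR adjusted p = 0.244, 3xTg-S minus WT-D).

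The genotype comparisons of these lists are given beside the oligodendrocyte, subfield and choroid plexus markers above, whose part was not tested. They held a gene that passed adjustment, the ER oxidase Ero1lb (Ero1b), which reoxidises disulfide isomerases. It had means of 15.8 CPM ± 1.41 in WT-D and 15.97 ± 1.61 in WT-S against 8.07 ± 0.963 in 3xTg-D and 9.52 ± 1.51 in 3xTg-S (SD, n = 4 each). The log2 fold change (3xTg minus WT) was -0.98 (SE 0.11, edgeR adjusted p = 0.00100) under vehicle, -0.74 (SE 0.13, edgeR adjusted p = 0.0167) under the SCDi and -0.73 (SE 0.12, edgeR adjusted p = 0.0163) for 3xTg-S against WT-D. Of all tested genes, 1.88%, 1.41% and 1.66% passed adjustment in these comparisons, in this order. At 0.01 and without passing adjustment, Lars, a leucyl-tRNA synthetase among the Atf4 targets, was lower in 3xTg-S than in WT-S (-0.31, SE 0.08) and WT-D (-0.30, SE 0.07), and the signal peptidase subunit Sec11c (-0.26, SE 0.07) and Atf5 (-0.28, SE 0.08) were lower in 3xTg-S than in WT-D. Beside these, 4.3% of all tested genes were called for 3xTg-S against WT-S and 5.84% for 3xTg-S against WT-D. The genes of lowest p in the other lists were Sec61g (interaction -0.45, SE 0.15), Man1b1 (0.12, SE 0.05, genotype under vehicle), Edem3 (0.17, SE 0.07, SCDi in 3xTg), Nfe2l2 (-0.21, SE 0.09, genotype under the SCDi) and Slc6a9 (-0.21, SE 0.07, 3xTg-S against WT-D), none of them called at 0.01.

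Overlapping genes touch a few of the values above. The strand setting of the counting is not stated, and exons on the opposite strand cover 10.3% of the exon bases of Hsp90b1, 8.05% of Eif2ak3, 11.4% of Ppp1r15b and 0.759 to 3.97% of Ddit3, where the second Ddit3 model covers a further 6.13% on its own strand. Reads there may have been counted for the partner or left out as ambiguous. Hspa5, at chr2:34771970-34777547 (GRCm38, plus strand, ENSMUSG00000026864.13), and Pdia4, at chr6:47796141-47813430 (minus strand, ENSMUSG00000025823.9), shared at most 0.584% of their exon bases with another gene.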

How the data were processed

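Hippocampal RNA was sequenced as single-end poly(A) RNA libraries from 16 mice. According to the labels and the paper, the authors trimmed reads with Trimmomatic 0.35, aligned them with STAR 2.5.1b to GRCm38 with Gencode M23, and deposited raw counts per gene without normalization. Use of the molecular identifiers and of strand in counting is not given in the sources used here. All 16 sample columns were used. Library sizes (15413385 to 23590149 reads on genes) set the counting error, and the chi-square between mice of a group was at least 3.78 per degree of freedom, more than sampling noise gives.

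In R 4.3.3, edgeR 4.0.16 kept 16475 genes (filterByExpr, minimum count 10, minimum total 15), scaled by TMM, and compared 2 groups at a time by its two-sided quasi-likelihood test. The study's threshold (unadjusted p not above 0.01) defined a called gene, and Benjamini-Hochberg adjustment ran over all tested genes. An interaction was fitted to all mice. CPM use TMM library sizes. Exon lengths and overlaps came from Gencode M21, by gene identifier. Within-group relations used log2 CPM with a prior count of 2. Alternatives were DESeq2 1.42.0 (likelihood ratio test), other size factors and filters, 1 fit over all mice, covariates, a replicate block and each mouse left out. The fits and the permutation test were tested on simulated data.

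The genes, their roles and the other lists were chosen with earlier results of these data known. Named with full values were 8 indicator genes and every gene called, and of other lists those with an adjusted p of 0.05 or less or the 2 of lowest p. Genes named at a p of 0.05 or less, the non-overlapping ones and those called in other lists were chosen after their values were seen. Replicate numbers come from the sample titles. Mice of the same number in WT-D and WT-S deviated together (r across genes of 0.11 to 0.34 in all 4 pairs), so these numbers were taken to pair the WT mice. The SE, intervals and p given for that comparison come from the fit without the replicate block and leave this pairing out. With the block no member was called there either. In the other comparisons not all 4 pairs exceeded 0.1. For 3xTg-S against WT-D all 4 were above 0 (0.06 to 0.26), and pairing there was not settled. The full genotype and strain designation of the 3xTg mice are not reported here.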

Additional observations from a re-analysis of the deposited data

Results flagged for a closer look

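The interaction of genotype and SCDi for Pdia4 is listed because the difference between the 2 SCDi effects was itself tested, with a log2 difference of 0.34 (edgeR adjusted p = 0.788).

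Of 132 gene and group combinations of 4 mice, 4 held a mouse far from the other 3, and chance alone gives about 1 in 20. Dnajb9, a cochaperone of Hspa5, had 74.7 CPM in WT-D mouse 2 against 60.7 to 62.5 CPM in the other 3. Edem1 had 28.8 CPM in WT-D mouse 1 against 21.2 to 22.1 CPM. Derl1, a channel component of ER-associated degradation, had 68.4 CPM in 3xTg-S mouse 2 against 54.6 to 56.8 CPM. Sesn2 had 13.6 CPM in WT-D mouse 4 against at most 12.1 CPM.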

How the results depend on the processing

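The number of members called at 0.01 changed as follows, with the share of all tested genes called under the same setting in brackets. For the SCDi in WT it was 3 at an unadjusted p of 0.05 and 0 to 2 with a mouse left out (2, Creld2 and Pdia4, without WT-S 4 [3.18%]). For the SCDi in 3xTg it was 2 with the replicate block [6.88%], 4 at 0.05 and 0 to 2 with a mouse left out. For the interaction (1) it was 0 with at least 10 counts in every mouse, median-ratio size factors, no filter, the choroid plexus score or the reads outside genes as covariate, without libraries of a choroid plexus score above 4 (chosen after seeing the data) and at an adjusted p of 0.05, 2 with the block [3.79%], 3 at 0.05 and 0 to 3 with a mouse left out (3 without WT-S 4 [2.44%]). For the genotype under the SCDi (1) it was 2 with DESeq2 [4.59%] or no filter [3.1%], 3 with all mice in a single fit [5.86%], 4 with the block [8.46%], 0 with the choroid plexus covariate [2.96%], without those libraries [3.2%] or at an adjusted p of 0.05, 6 at 0.05 and 0 to 4 with a mouse left out (4 without WT-S 4 [5.97%]). For 3xTg-S against WT-D it was 2 with DESeq2 [6.28%], no filter [3.71%] or the reads outside genes as covariate [8.76%], 3 with the choroid plexus covariate [3.81%] or without those libraries [4.92%], 6 with the block [6.65%], 7 at 0.05 and 0 to 3 with a mouse left out (3 without 3xTg-S 1 [5.5%] or WT-D 4 [4.92%]). Averaged over genotypes it was 1 with the block [1.77%], the reads outside genes [1.45%] or at 0.05, and 0 to 1 with a mouse left out. The genotype under vehicle gave 0 throughout, with 0 to 0 when a mouse was left out. For the genotype under the SCDi, leaving out those libraries is the same fit as leaving out WT-S 1. For 3xTg-S against WT-D it is the same fit as leaving out WT-D 4. The causes of these changes in number were not tested.

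Signs turned only for effects near 0. With the choroid plexus covariate, Asns in WT was 0.00312, Hsp90b1 in WT 0.0184 and Herpud1 in 3xTg -0.00892. Hsp90b1 in WT was 0.0525 without the 2 high-score libraries and 0.0454 with the reads outside genes, where Ddit3 in 3xTg was 0.0684. Herpud1 in 3xTg was -0.0134 without a filter. With a mouse left out, WT values ranged from -0.0462 to 0.0309 (Asns), -0.0166 to 0.0634 (Atf4), -0.0122 to 0.12 (Ddit3), -0.0723 to 0.0167 (Herpud1), -0.0488 to 0.0541 (Hsp90b1) and -0.0224 to 0.12 (Xbp1), and 3xTg values from -0.0287 to 0.0190 (Atf4), -0.0935 to 0.0876 (Ddit3) and -0.0241 to 0.0647 (Herpud1). Outside the WT comparison, whether mice of the same number are paired was not settled. Of 8 mice, 7 correlated best with their own number in the SCDi comparison of WT, 4 in that of 3xTg, 3 in the genotype comparison under vehicle, 6 in that under the SCDi and 7 for 3xTg-S against WT-D. With the block, Hspa5 reached an edgeR adjusted p of 0.0491 for the genotype under the SCDi. In the same comparison without WT-S 4, Hyou1 reached an edgeR adjusted p of 0.0362 (log2 fold change 0.41). Of 132 recomputed medians over the members, 129 moved by less than the spread between mice. The other 3 were the SCDi in 3xTg without 3xTg-D 2 (0.11) or 3xTg-S 1 (0.13) and the interaction without a filter (0.04). Genes under 1 CPM per kb limit what depth can show, and p-values measure only the spread between these mice.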

Other observations

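The genes outside the 33 that followed Hspa5 most closely within groups were Ebna1bp2, a nucleolar ribosome assembly factor (r = 0.92), the lipid kinase Pip5k1b (0.88) and Ubxn2b (0.87), which with Pdia6 and Hsp90b1 made up the first 5 of 16474 genes. Of the first 20 genes 4 were members and of the first 100 genes 6 were. Over all 496 pairs of tested members the median r was 0.12, below the 0.46 of Hspa5 with the others.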
